A study of Mus musculus with 2 samples.

Results

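The genes described here are those whose whole listed coding span fell inside 1 window of 700 bp, so that their deposited signal is the reads of that window and not an average along a gene. Each gene was represented by its listed transcript with the most windows, and those with exactly 1 window on chromosomes 1 to 19 were kept. Of these 718 genes, 59 with symbols beginning Hist, Olfr, Vmn, Krt, Rpl or Rps were left out, which gave 659 of the 22605 genes in the table. The choice used the number of windows and the symbol and no signal value. DNase I hypersensitive sites had been sequenced (DHS-seq) in 1 library from M1 cells without treatment and in 1 from M1 cells that the labels describe as grown with interleukin-6 (IL-6) for 4 to 5 days. M1 is an established line of mouse myeloid leukemia cells, labelled as myeloid progenitors, and both libraries came from that line. With 1 library per condition, a difference between them has no replicate check, and no p-value is given.

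DNase I cuts DNA where nucleosomes are displaced, so the number of short fragments recovered from a stretch of DNA measures how open its chromatin was in the cells. Promoters of genes in use are the best known open sites, and many of them lie in CpG islands, stretches in which the dinucleotide CG is frequent. Very short coding spans belong to small proteins encoded by an uninterrupted reading frame, to the variable segments of antigen receptor genes, which are joined only in lymphocytes, and to many predicted genes whose product has not been described.

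The members' sequences differed in how often they held CG, and 7 examples are shown because the results return to each of them. Each line gives the first 120 bases of the coding span, 5' to 3' on the gene's strand, from the NCBIM37 assembly that the table uses, with every CG in capitals. C330011M18Rik (chr8:86590378-86590497, minus strand) had the most reads of all members, Sf3b5 (chr10:12728429-12728548, plus strand) and H2afx (chr9:44142845-44142964, plus strand) were the strongest members with established names, and Ighv1-67 (chr12:116842325-116842444, minus strand) had the highest ratio after IL-6 among members with at least 100 reads. Trbv14 (chr6:41085166-41085285, plus strand, where the printed stretch runs from the first coding exon into the intron) held no reads in a window that occurs once in the genome. Sprr2a1 (chr3:92023014-92023133, plus strand) and Sprr2a2 (chr3:92057827-92057946, plus strand) held no reads and have the same sequence, with 0 of the 120 bases differing.
C330011M18Rik: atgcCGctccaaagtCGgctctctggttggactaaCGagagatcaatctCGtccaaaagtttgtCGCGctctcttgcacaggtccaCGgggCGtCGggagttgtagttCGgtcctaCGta
Sf3b5: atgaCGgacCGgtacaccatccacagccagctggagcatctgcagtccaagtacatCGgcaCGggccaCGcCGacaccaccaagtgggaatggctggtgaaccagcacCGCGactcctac
H2afx: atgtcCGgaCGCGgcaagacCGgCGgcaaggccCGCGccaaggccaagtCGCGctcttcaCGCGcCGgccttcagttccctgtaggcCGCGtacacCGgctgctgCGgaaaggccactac
Ighv1-67: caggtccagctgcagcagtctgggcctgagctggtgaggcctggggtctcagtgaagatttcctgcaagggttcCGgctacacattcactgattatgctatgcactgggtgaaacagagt
Trbv14: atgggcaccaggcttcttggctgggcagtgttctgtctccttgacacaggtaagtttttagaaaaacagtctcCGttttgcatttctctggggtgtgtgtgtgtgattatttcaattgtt
Sprr2a1: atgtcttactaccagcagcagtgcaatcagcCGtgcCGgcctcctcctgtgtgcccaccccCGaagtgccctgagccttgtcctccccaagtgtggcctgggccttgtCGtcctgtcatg
Sprr2a2: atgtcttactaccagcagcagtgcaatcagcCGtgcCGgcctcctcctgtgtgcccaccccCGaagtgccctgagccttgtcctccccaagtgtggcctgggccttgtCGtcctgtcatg
The printed bases hold CG 11 times in C330011M18Rik, 8 times in Sf3b5, 16 times in H2afx, 1 time in Ighv1-67, 1 time in Trbv14 and 4 times in each Sprr2a gene. CG reads the same on both strands. Of the 617 members with a coding span of at least 120 bp, 73.1% held CG at least 1 time in these first 120 bases and 13.6% held it 8 times or more, with a median of 2. Over the whole window, 98.8% of the members held at least 1 CG.

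No 2 members shared a window. Their coding spans had a median of 360 bp and ran from 21 to 684 bp, so each value also counts bases beside the coding span. The coding sequence was in 1 part in 505 members, in 2 parts in 144 and in 3 parts in 10. GENCODE M1 lists 528 members as protein-coding and 131 as antigen receptor segments. Counting those named as such, 135 members were antigen receptor segments, so a large gene family remained among genes picked as lying outside large families. By symbol, 380 members were predicted genes (Gm followed by a number), 108 had only a clone or sequence name such as C330011M18Rik, 72 were named immunoglobulin or T cell receptor segments, and 99 had other established names.

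Non-overlapping coding spans of the whole table contain 9119202 reads (M1 cells) and 8558661 reads (IL-6-treated M1 cells), or 7.59 and 7.12 reads per window. In the deposited column of IL-6-treated cells 1 read is worth 1.03816, and scaled reads below are on that scale. Ratios depend on the scaling between the libraries, so where another one changes a result it is given as well. It is the median of ratios, taken over the 186 single windows of the table with at least 22 reads in both libraries, and it shifts every log2 ratio by 1.62. Of the 18472 genes with more than 21 reads over the span in either library, 9550 were higher after IL-6 on the deposited scale. Under the median of ratios 17635 of them were, so a ratio above 1 under that scaling is what most genes show. Intervals of ratios are exact 95% Clopper-Pearson intervals that cover counting error only and compare the 2 libraries. A window at 0 allows up to 3 reads. Among marker genes, the means of 7 myeloid progenitor genes lay between 4.10 and 51.5 reads per window in M1 cells, and those of 4 T and B cell genes between 6.67 and 10.5. Those of 6 macrophage genes lay between 2.43 and 50.7, and those of 3 erythroid genes (3 to 16) and 2 liver genes (3.09 to 21.7) also overlapped the progenitor range. After IL-6 the ranges on the deposited scale were 5.45 to 19.2 for progenitor genes, 2.77 to 20.4 for macrophage genes, 8.70 to 16.1 for T and B cell genes, 2.42 to 19.6 for erythroid genes and 4.34 to 22.1 for liver genes, so in neither library did these lists separate the labelled cell type from the others.

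Most members held few reads. In M1 cells the median was 7 reads, the middle 50% of members lay between 2.00 and 13, and the strongest window held 1426. In IL-6-treated cells the median was 7.27 scaled reads, with quartiles of 3.11 and 13.5 and a maximum of 291. More than 21 reads, the lower limit of a hypersensitive site in the study's methods, were found in 103 members in M1 cells (15.6%) and in 91 members in IL-6-treated cells (13.8%). Of all 22575 genes on chromosomes 1 to 19 and X, 14.4% had a mean above 21 in M1 cells and 6.44% after IL-6. The share in M1 cells is near that of all genes, whose means run over many windows. The limit was passed in both libraries by 72 members, in M1 cells alone by 31 and in IL-6-treated cells alone by 19, which makes 122 in either library. Of the 22575 genes, 3521 had a mean above 21 in either library, 3261 in M1 cells and 1453 after IL-6.

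Genes of 2 windows outside the same families gave similar levels. Their 1662 genes had medians of 6.50 and 7.79, and 16.7% and 12.6% of them passed 21. The 59 single-window genes of the left-out families stood higher, with a median of 16 reads in M1 cells and 45.8% above 21.

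The reads were concentrated in few members. Together the members held 16770 reads (M1 cells) and 7406 reads after IL-6 treatment, and the 33 strongest in each library held 59.6% and 30% of them. More than 100 reads were found in 39 members in M1 cells and, on the deposited scale, in 5 members after IL-6.

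**Figure D1:**
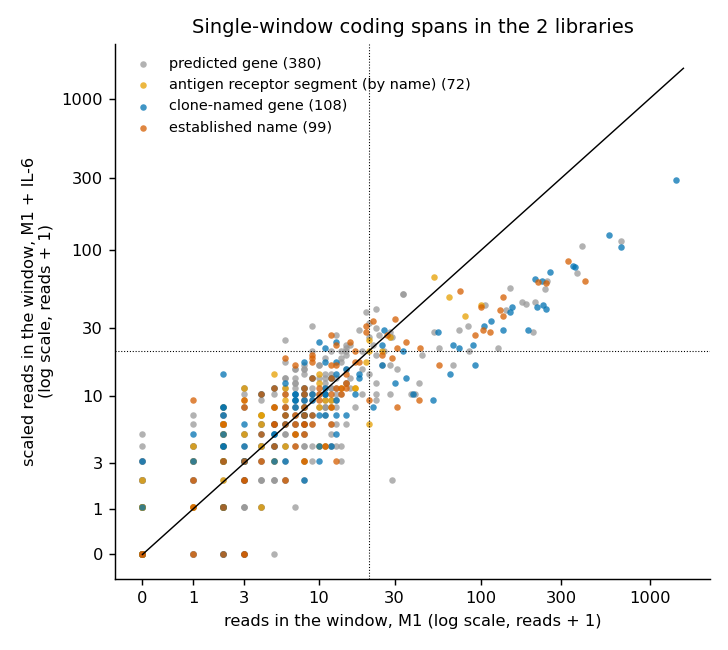
Reads in M1 cells (horizontal axis) against scaled reads in IL-6-treated M1 cells (vertical axis) for all 659 members, with 1 added and on log axes, 1 point per member and colours for the kind of gene. The 39 members over 100 reads in M1 cells all lie below the line of equal reads, while members of few reads lie on both sides of it.

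Most of the strongest windows, like most members, were those of genes with a clone name or a predicted gene number. C330011M18Rik held 1426 reads in M1 cells and 280 reads (291 scaled) after IL-6, the most in either library. Its window on chromosome 8 (86590001 to 86590700) lies with its centre 385 bp from the start of Rfx1, a gene of the RFX family of DNA-binding factors. C730034F03Rik held 678 and 100 reads, and the start of Chkb, which encodes a choline kinase, falls inside its window. Gm7461 held 676 and 111 reads, and the nearest start of another coding gene is 25686 bp away. 4930442H23Rik followed with 576 and 121 reads, 713 bp from the start of Dapk3, a gene for a death-associated protein kinase. Gm10941 (399 and 102 reads), Gm10699 (372 and 68 reads) and 2510046G10Rik (351 and 75 reads) each share their window with the start of another coding gene, which are Pofut2, Erich1 and Ccdc101. Such a window counts the open chromatin of whichever gene lies there, and its reads cannot be told apart by gene. C330006D17Rik (361 and 74 reads) lies 1595 bp from the start of Birc2, an inhibitor of apoptosis.

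Several strong members with established names serve functions that most cells need. H2afx encodes histone H2A.X, which is phosphorylated next to DNA breaks, and its window on chromosome 9 (44142701 to 44143400) held 412 reads in M1 cells and 60 reads (62.3 scaled) after IL-6. Sf3b5 encodes a subunit of the SF3b splicing complex and held 327 and 81 reads in its window on chromosome 10 (12728101 to 12728800). Pop7, a subunit of ribonuclease P, held 242 and 58 reads. Ost4, a subunit of the oligosaccharyltransferase that glycosylates proteins in the endoplasmic reticulum, held 218 and 59 reads. These 4 genes lie more than 5 kb from the start of any other coding gene. Among small mitochondrial proteins, Timm13, which takes part in protein import, held 135 and 35 reads, and Mrpl36, a protein of the mitochondrial ribosome, held 102 and 28. The weakest of that kind, Cox7b2, held 1 and 2 reads. H2afb1, the other member for a histone variant, held 8 and 6 reads.

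By kind, clone-named genes took a larger share of the strong windows than of all members, and predicted genes a smaller one. Clone-named genes made up 108 of the 659 members, 32 of the 103 above 21 reads in M1 cells and 17 of the 39 above 100. Predicted genes made up 380 members, 42 of those 103 and 13 of those 39. The 72 segments named as immunoglobulin or T cell receptor genes had a median of 4.00 reads in M1 cells and 5.19 after IL-6, with 6 above 21 in each library and a maximum of 100 reads in M1 cells, in Ighv1-54. These counts are a description and were not tested.

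The values of the smaller kinds by symbol stand beside medians over all members of 7 reads in M1 cells and 7.27 scaled reads after IL-6. The 15 genes of the cornified envelope of skin (8 Sprr and 7 Lce genes) had 0 to 10 reads in M1 cells, a median of 5.00, and 7.27 after IL-6. Within them the Lce genes, from 1 to 6 reads, had a median of 3 and the Sprr genes of 6.50. The 5 type I interferon genes had 3 to 14 reads in M1 cells with a median of 11, from Ifna5 (3 and 3 reads) to Ifne (14 and 11 reads). The sperm chromatin genes Prm3 and Tnp1 held 5 and 8 reads in M1 cells, and 8 and 5 after IL-6. Tal2 and Nhlh2, which encode basic helix-loop-helix transcription factors, held 7 and 12 reads in M1 cells and 7 and 6 after IL-6. Defb25, a beta-defensin, held 6 and 18 reads. Dusp14, a phosphatase that acts on signaling kinases, held 7 and 16 reads, and Zfp580, a zinc finger protein, held 15 and 14. Ucn3, a neuropeptide gene and the strongest of the secretory kind, held 21 and 9 reads, while Wfdc15b held 3 and 8. In the 5-gene kind of claudins and membrane channels, grouped by symbol, Tmem203 held the most, 56 and 16 reads, in a window that also holds the start of Ndor1. The claudin gene Cldn8, which encodes a tight junction protein, held 5 and 11. Each of these values except that of Tmem203 in M1 cells is at or below 21 reads on the deposited scale. Of the 5 genes in the claudin and membrane channel kind, not all named here, 2 passed 21 reads in M1 cells and 0 after IL-6.

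The RNase A family, secreted ribonucleases of which several act in host defense, was looked at after its values were seen. Its 8 members (5 Rnase genes, Ear10, Ear11 and Ang) had a median of 18.0 reads in M1 cells, from 2 to 27, and 25.4 scaled reads after IL-6, from 0 to 33.2. Rnase1 held 22 and 32 reads, Rnase4 27 and 26, and Ear11 20 and 30. The interval of the ratio on the deposited scale held 1 in each of the 8 genes. The limit of 21 reads was passed by 2 of the 8 in M1 cells and by 5 after IL-6, beside 15.6% and 13.8% of all members. On the deposited scale 6 of the 8 were higher after IL-6 and 2 lower. Without scaling 4 were higher and 3 lower, and under the median of ratios 7 were higher and 1 lower. Under that last scaling 17635 of all 18472 genes past 21 reads were higher too.

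The strong windows were rich in CG. Among the 39 members above 100 reads in M1 cells the median window held 55 CG and 59.9% G and C bases, against 9 CG and 48.1% over all 659 members. Of these 39, 31 held at least 40 CG and 37 at least 20. Read from the sequence side, 83 members held at least 40 CG in their window, and their median was 35.0 reads in M1 cells and 17.6 scaled reads after IL-6. In M1 cells 57.8% of them passed 21 reads, compared with 17.9% of the 95 members with 20 to 39 CG, 10.7% of the 150 with 10 to 19, 7.14% of the 154 with 5 to 9 and 6.21% of the 177 with fewer than 5. Of the 83, 3 were at 0 in both libraries (Gm17330, Gm5784 and Gm9257), and only 8.37%, 25.3% and 39.6% of the sequence of their windows occurs once in the genome. C330011M18Rik holds 54 CG in its window, Sf3b5 64 and H2afx 74.

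**Figure D2:**
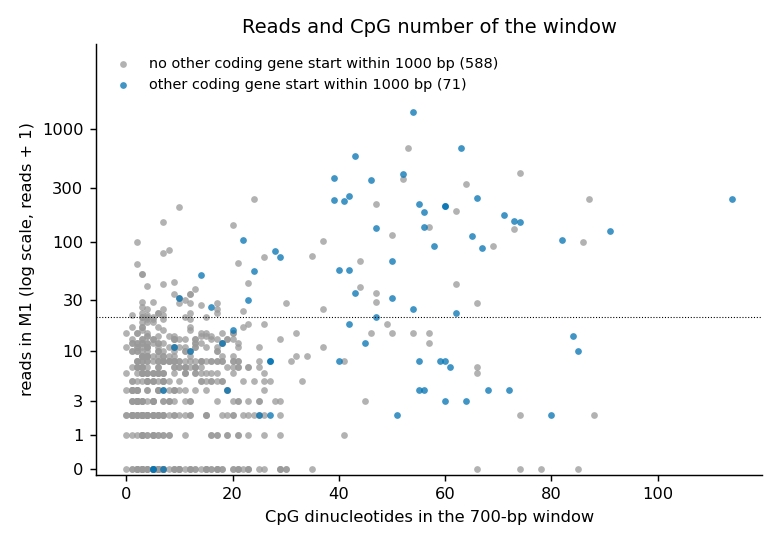
Number of CG in the 700-bp window (horizontal axis) against reads in that window (vertical axis, log scale with 1 added) for the 659 members in M1 cells, marked by whether the start of another coding gene lies within 1000 bp. Members with 40 CG or more have a median of 35.0 reads in M1 cells, and members with fewer than 5 have a median of 5.00.

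Being close to the start of another coding gene went with more reads as well. A start within 1000 bp of the window's centre was present for 71 members, whose median was 31 reads in M1 cells, with 56.3% above 21. For the 588 others the median was 6 and 10.7% were above 21. Both features together were found in 48 members with a median of 62 reads and 62.5% above 21. The 35 members rich in CG (40 or more) without such a start had a median of 28.0 and 51.4% above 21, the 23 with a start but fewer CG had 12 and 43.5%, and the 553 with neither had 6 and 8.14%. Of the 39 members above 100 reads, 24 lay within 1000 bp of another start, 8 had only their own annotated start in the window, and 7 had neither. The last 7 were 2700089E24Rik, Gm10643, Gm7461, Mrpl36, Pop7, Prr24 and Timm13. A gene's own start was looked for only inside its 700-bp window, so one that lies just outside was not counted. The gene's own annotated start lay in the window of 445 members, of which 15.3% passed 21 reads, and outside it for 214, of which 16.4% did.

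At the other end, 89 members were at 0 in M1 cells, 76 after IL-6 and 57 in both (8.65%). Of all genes, most of which span many windows, 2.56% were at 0 in both, but the share was 7.88% in the genes of 2 windows outside the same families and 7.05% in those of them with a coding span of at most 700 bp. Most of these 57 windows are repeated elsewhere in the genome. Taking the share of a window's 32-bp sequences that occur once in NCBIM37 as its uniqueness, 51 of the 57 were below 50% unique and 30 had no unique sequence. Over all members, 31 windows had no unique sequence and 30 of them (96.8%) were at 0 in both libraries. Of the 115 windows with some but under 50% unique sequence 18.3% were at 0, and of the 335 windows at least 90% unique 1.49% were. How reads that match several places were treated is not given in the sources used here. Sprr2a1 and Sprr2a2, whose first 120 bases are identical above, both have windows with 0% unique sequence. Other members at 0 included the predicted gene Gm10053 (7.17% unique) and the clone-named 1700034I23Rik (0%). By kind, 47 of the 57 were predicted genes, 7 were named antigen receptor segments, 2 were Sprr genes and 1 was a clone-named gene. By annotation or name 20 of the 57 were antigen receptor segments.

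**Figure D3:**
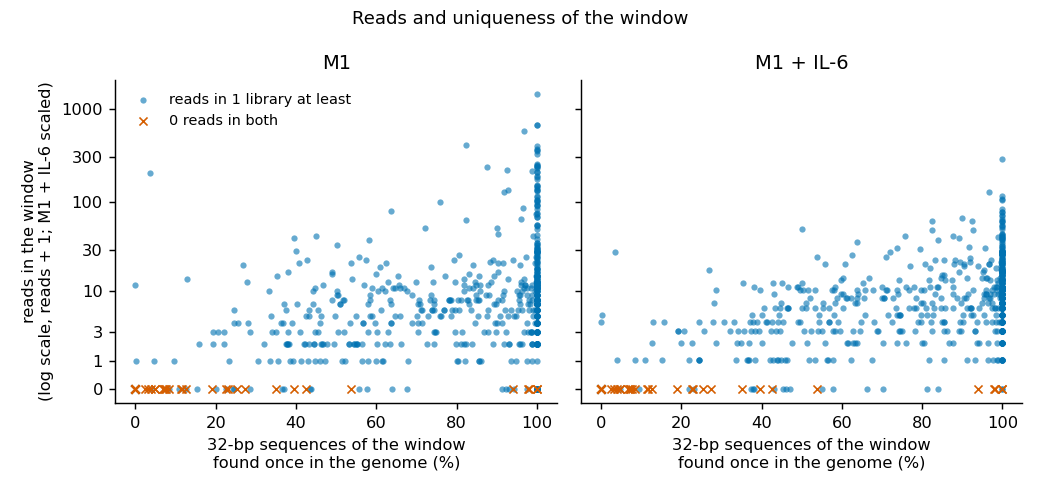
Share of a window's 32-bp sequences found once in the genome (horizontal axis, percent) against its reads (vertical axis, log scale with 1 added) for the 659 members in each library, with crosses for members at 0 in both. Of the 57 crosses, 30 stand at 0% unique and 5 at 90% or more.

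In the windows at least 90% unique, 5 members were at 0 in both libraries, and all 5 lie in antigen receptor loci. Gm16632 (98.1% unique) and Gm7005 (97.8%) lie in the immunoglobulin heavy chain locus on chromosome 12, where 2 of 114 listed genes were at 0. The other 3, Gm17526, Trbv12-1 and Trbv14, belong to the T cell receptor beta locus on chromosome 6. There, 10 listed genes in a row (Gm17526, Trbv12-1, Trbv13-1, Trbv12-2, Trbv13-2, Trbv13-3, Trbv14, Trbv15, Trbv16 and Trbv17, 3 of them members) were at 0 in both libraries over 17 windows, from 41041939 to 41113550, a stretch of 71.6 kb. The 11 listed genes beside this stretch, from Trbv2 to Trbv5 and from Trbv19 to Trbv30, had means of 2.00 to 11 reads per window in M1 cells and 4.15 to 8.82 after IL-6. Of the members on either side, Trbv5 held 8 and 7 reads and Trbv19 held 6 and 7. Within the stretch, uniqueness was computed only for the 3 members (94.0 to 100%) and not for the other genes. The stretch was chosen after its values were seen, and whether its DNA is present in these cells was not tested.

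**Figure D4:**
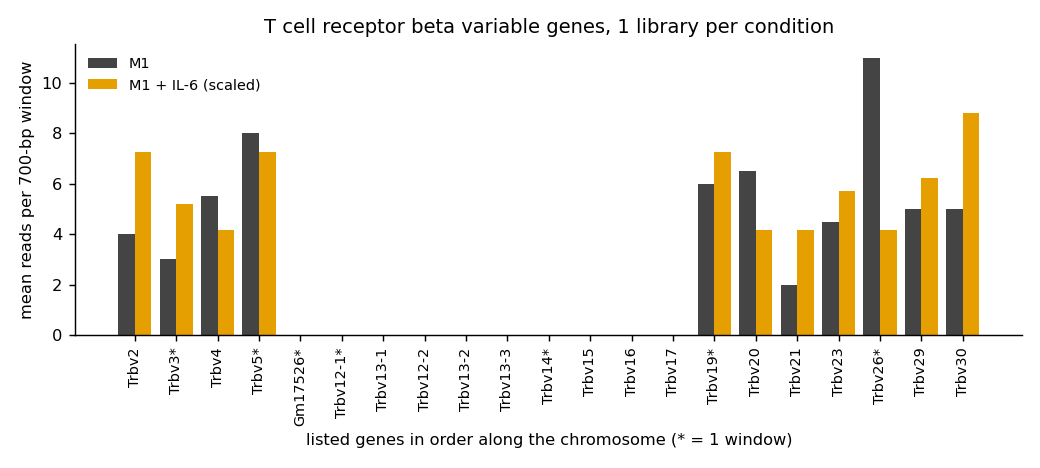
Mean reads per window of the 21 listed genes of the T cell receptor beta locus in chromosomal order, in M1 cells and, scaled, in IL-6-treated M1 cells, with bars starting at 0. The 10 genes from Gm17526 to Trbv17 are at 0 in both libraries, and the 11 genes on either side are between 2.00 and 11 in M1 cells.

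In the immunoglobulin heavy chain locus 55 members had medians of 8 reads in M1 cells and 7.27 after IL-6, and 7 and 6 of them passed 21, while 2 were at 0 in both libraries. Between the first and last listed Tra gene on chromosome 14 (53047642 to 54842772), 38 members held 313 reads in M1 cells and 175 after IL-6, a ratio of 0.580 (0.480 to 0.701) on the deposited scale that became 1.79 (1.48 to 2.16) under the median of ratios. Of these members 14 were at 0 in both libraries, and 13 of the 14 had no unique sequence. Gm13896 in this stretch had the lowest ratio of all members above 21 reads in either library, with 29 reads in M1 cells and 2 after IL-6 (ratio 0.0716, 0.00828 to 0.283, or 0.220 under the median of ratios), and 40.1% of its window is unique. Between the first and last Ifn gene of the cluster on chromosome 4, 11 members held 76 and 51 reads, a ratio of 0.697 whose interval (0.479 to 1.01) includes 1, or 2.14 (1.47 to 3.10) under the median of ratios.

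A copy of mitochondrial DNA was among the strong members. Gm10222 on chromosome 1 (24619001 to 24619700) held 204 reads in M1 cells and 27 after IL-6. Only 3.59% of its 32-bp sequences are unique, and 96.4% of them also occur in the mitochondrial genome, so its reads cannot be assigned to chromosome 1. Gm10925, the other member with most of its sequence (100%) on the mitochondrial genome, held 0 reads in both libraries.

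The comparison between the libraries asked how the openness of these windows differed with IL-6, which makes M1 cells differentiate. The ratio was taken among the 122 members with more than 21 reads in either library, with 0.5 reads added to each library for the log2 value. Of these, 69 were at least 2-fold lower after IL-6 (56.6%) and 5 at least 2-fold higher (4.10%), and the median log2 ratio was -1.31. Among all genes with a mean above 21 reads per window in either library, a decrease of at least 2-fold was seen in 56.4%. An increase of that size was seen in 0.483%, and the median was -1.12. The members' share of lower windows is near that of all genes, whose means run over many windows. Among genes of 2 windows outside the same families 62.7% were lower and 2.53% higher (median -1.53). In those of them with a coding span of at most 700 bp these were 71.5% and 3.23% (-1.65), so the members were less often lower than these. When 21 reads over the whole span were enough, which genes of many windows reach easily, the decrease was seen in 13.4% of all genes and the increase in 1.71%. Counting error alone left 73 of the 122 with an interval below 1, 7 with an interval above 1 and 42 with an interval that includes 1.

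This direction depended on the scaling between the libraries. Under the median of ratios the median of the 122 became 0.31, with 52 lower and 70 higher. Among members at least 2-fold different, 93.2% were lower on the deposited scale, where 122 members passed the limit of reads. The share was 1.96% under the median of ratios, but with that scaling 332 members passed the limit. These shares therefore describe different sets of members, and their contrast is not a change within the 122. The order of members by ratio is the same under every scaling.

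The ratio was lower in windows with more reads. The 39 members above 100 reads in M1 cells, chosen on that value, had log2 ratios between -2.84 and -1.29 (median -1.98), all lower on the deposited scale and 36 of 39 lower under the median of ratios. The 64 members with 22 to 100 reads had a median of -0.96, which became 0.66 under the median of ratios. Of the 51 members with at least 100 reads over both libraries, a choice that uses both, 50 were lower and 48 had an interval below 1 on the deposited scale, and 40 were lower under the median of ratios. Among the 22 members above 50 scaled reads after IL-6, 19 were lower and 3 higher (Gm11939, Gm16891 and Ighv1-67).

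H2afx, C730034F03Rik and Gm10222 had the lowest ratios among members with at least 100 reads. H2afx stood at 0.151 of its M1 value (0.113 to 0.199) and C730034F03Rik at 0.153 (0.123 to 0.189). Gm10222 stood at 0.137 (0.0884 to 0.206). Under the median of ratios these became 0.465, 0.471 and 0.423, each with an interval below 1. C330011M18Rik stood at 0.204 (0.179 to 0.232), or 0.627 under the median of ratios. The ratio of Sf3b5 was 0.257 (0.199 to 0.329), or 0.791 under the median of ratios, where its interval (0.613 to 1.01) includes 1.

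Richness in CG also separated the ratios. Of the 49 members past 21 reads with at least 40 CG, 45 were at least 2-fold lower (median log2 ratio -1.91). Of the 40 with 10 to 39 CG, 15 were (-0.72), and of the 33 with fewer than 10 CG, 9 were, and their median was 0.05. The groups also differ in reads, as described above, and the part of each was not tested.

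The highest ratios among members with at least 100 reads were near 1 on the deposited scale and above 1 under the median of ratios. Ighv1-67, an immunoglobulin heavy chain segment whose printed sequence holds CG 1 time, held 52 reads in M1 cells and 64 (66.4 scaled) after IL-6, a ratio of 1.28 (0.872 to 1.88). Tnfaip8l2, which encodes an inhibitor of innate immune signaling, held 75 and 51 reads, a ratio of 0.706 (0.485 to 1.02). Ighv8-14 held 64 and 47 reads, a ratio of 0.762 (0.512 to 1.13). Each of these intervals includes 1 on the deposited scale. Under the median of ratios the 3 ratios became 3.93 (2.68 to 5.78), 2.17 (1.49 to 3.14) and 2.35 (1.57 to 3.47). Ighv1-54 held 100 and 41 reads, a ratio of 0.426 (0.288 to 0.618), or 1.31 (0.888 to 1.90) under the median of ratios.

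The 5 members at least 2-fold higher after IL-6 all held few reads in M1 cells. Gm10142 held 6 reads in M1 cells and 24 after IL-6, a ratio of 4.15 (1.65 to 12.4). Gm10100 held 9 and 30, a ratio of 3.46 (1.60 to 8.29). Both lie on chromosome 10, and for both the nearest start of another coding gene is that of Krtap12-1, at 4481 and 6019 bp. Their windows are 71.0% and 73.7% unique. Krtap genes encode the keratin-associated proteins of hair. The other 3 were 3110018I06Rik (10 and 23 reads), S100a3, which encodes a calcium-binding protein found in hair (12 and 26 reads), and Gm10644 (13 and 26 reads), each with an interval whose lower end is between 1.03 and 1.10.

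Members that lie between Krtap genes were examined after this was seen. On chromosome 11, between 99411824 and 99855253, 19 predicted genes held 308 reads in M1 cells and 402 after IL-6, a ratio of the sums of 1.36 (1.17 to 1.58). The ratio was above 1 in 15 of them and below 1 in 4 on the deposited scale, and their median log2 ratio was 0.50, from -1.17 to 1.28. Without scaling 14 were higher, and under the median of ratios all 19 were. Over all genes past 21 reads 9550 of 18472 were higher on the deposited scale, with a median of 0.03, and over all 196 members with 8 to 21 reads in M1 cells the median was -0.13, against 0.54 over the 303 with up to 7 reads and reads in at least 1 library. Gm14185 held 23 and 39 reads (ratio 1.76, 1.03 to 3.09), Gm11565 20 and 37 (1.92, 1.09 to 3.49), and Gm11939, the strongest after IL-6, 34 and 49. The limit of 21 reads was passed by 5 of the 19 in M1 cells and by 9 after IL-6. Their windows held 0 to 12 CG and were 33.2 to 100% unique, with a median of 83.1%.

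**Figure D5:**
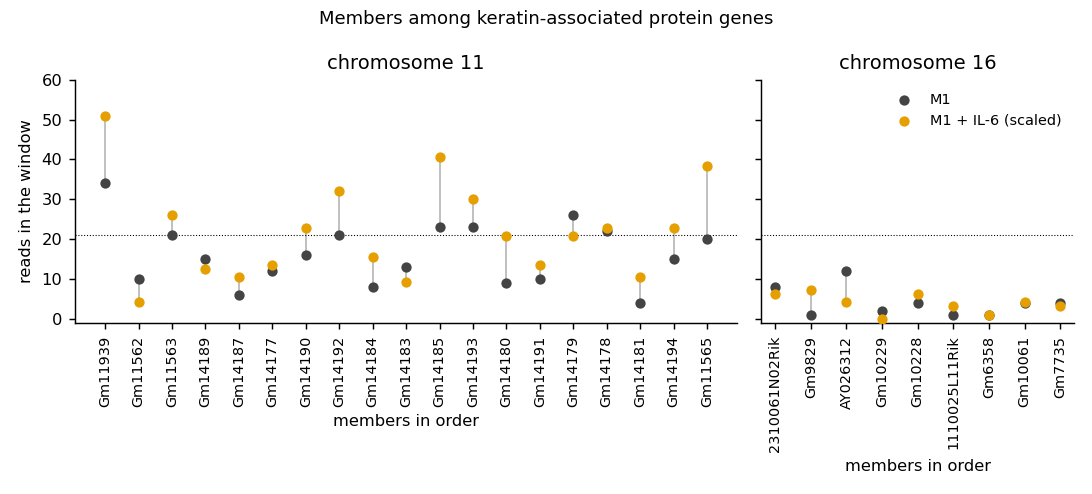
Reads in M1 cells and scaled reads in IL-6-treated M1 cells of the members that lie between Krtap genes on chromosomes 11 and 16, joined by a line for each member in chromosomal order. On chromosome 11, 15 of 19 members are higher after IL-6, and on chromosome 16 the 9 members stay at or below 12 reads.

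The 22 Krtap genes listed on chromosome 11, which the rule leaves out, were higher in 20 cases and lower in 2, with 514 and 767 reads and a ratio of the sums of 1.55 (1.38 to 1.74). On chromosome 16, between 88611735 and 89571374, 9 members among the Krtap genes held 37 and 34 reads, a ratio of 0.954 (0.581 to 1.56), so a difference was not detectable at this depth on the deposited scale, while the median of ratios gave 2.94 (1.79 to 4.81). The 19 Krtap genes of chromosome 16 held 150 and 232 reads, a ratio of 1.61 (1.30 to 1.99). No member on chromosome 16, of 21, passed 21 reads in either library.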

How the data were processed

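Nuclei of M1 cells and of IL-6-treated M1 cells had been digested with DNase I, and the short fragments were sequenced. The authors trimmed the reads, aligned them with BWA to NCBIM37 and viewed them in Seqmonk, whose kind of report the table appears to be. For each of 55432 transcripts, the signal values the authors deposited are a mean and an SD over all 700-bp windows reached by the coding sequence, beside the number of windows and of coding parts. A further value column is empty. For a member, the SD was 0 and the mean is the signal of 1 window. Reads were recovered by dividing by what 1 read is worth, 1.0 in M1 cells and 1.03816 in IL-6-treated cells, and 100% of rows came out within 0.05 of a whole number. Duplicate removal and reads that match several places are not given in the sources used here. The methods describe single reads and a legend paired ends.

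The members and lists were chosen with earlier results of these data known. Kinds were assigned by symbol. Log2 ratios add 0.5 reads to each library, and ratios have exact Clopper-Pearson intervals. No test was made, since each group has 1 library. Members named were the 10 with most reads in each library, the 3 lowest and 3 highest ratios with at least 100 reads, the strongest and weakest of each kind, and members at 0 whose window was at least 90% unique. Other names and the loci were chosen after their values were seen. Window sequence and 32-bp uniqueness came from NCBIM37, and gene starts from GENCODE M1. The recovery and the intervals were tested on simulated data with counting error alone, which cannot show how repeated libraries would differ. Alternatives covered scaling, reads added, threshold, fold and subsets of members. The software was numpy 2.4.6, scipy 1.17.1, pandas 2.3.3, numba 0.67.0 and matplotlib 3.10.9 under Python 3.11.15.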

Additional observations from a re-analysis of the deposited data

How the results depend on the processing

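Of 63 values recomputed under other choices, 40 stayed within 1.5 times the value given (or within the limits set for the median), 22 moved further and 1 changed sign. The scaling mattered most, through the median of ratios, which is set by strong windows that include members. The median of ratios over 186 windows gave 331 members above 21 scaled reads after IL-6 in place of 91, 5 at least 2-fold lower in place of 69, 250 at least 2-fold higher in place of 5, and a median log2 ratio of 1.68 among the 332 members then past the limit in place of -1.31. Equal totals over coding spans and no scaling shifted the log2 ratios by 0.04 and -0.05. A limit of more than 10 reads gave 214 members in M1 cells, 241 after IL-6, 30 at least 2-fold higher and a median of -0.22. A limit of more than 50 reads gave 60, 22, 0 and -1.89. Adding 5 reads left 2 members at least 2-fold higher, and a fold of 1.5 gave 14. Without predicted and clone-named genes, 171 members remained, of which 29 passed 21 reads in each library, 9 were at 0 in both, 16 were at least 2-fold lower and 1 higher, with a median of -0.62. The 335 windows at least 90% unique held 5 members at 0 in both and 3 at least 2-fold higher. Leaving out antigen receptor segments, an alternative chosen after seeing the data, left 37 members at 0 in both. Fewer members enter these last 3 subsets; for the other choices the cause was not tested. No paired analysis was possible because the 2 groups hold 1 library each and the values come from no test. At about 7 reads per window, most members are too shallow for a 2-fold difference to leave an interval that excludes 1.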
